A study of Equus caballus with 12 samples.

Results

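BNIP3L (ENSECAG00000005770) and CALCOCO2 (ENSECAG00000015498) are selective autophagy receptors, and their transcripts were followed in every sample of in vitro matured horse oocytes. They were chosen by name, as 2 of the 11425 genes in the table of normalized counts, with earlier results of the same samples in view. Their levels and their differences between groups are therefore given as a description, with no test. Three-prime messenger RNA sequencing was made on pools of horse oocytes, with an average of 23 oocytes per sample, from ovaries collected at a slaughterhouse. All groups were matured in vitro within their cumulus cells, denuded, and kept only if a polar body was visible. Fresh oocytes were never vitrified (FR, 5 samples). VMAT oocytes were vitrified and warmed after maturation (3 samples), and VIM oocytes (called VGV in the labels) were vitrified immature, warmed and then matured (4 samples). Each sample is a pool, so differences between single oocytes were not measured, and only oocytes that survived and matured entered a pool.

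Autophagy encloses cell material in a double membrane, the autophagosome, and delivers it to the lysosome. Selective receptors decide what is enclosed, because they bind a cargo with one part and the ATG8 proteins of the growing membrane (the LC3 and GABARAP families) with another. BNIP3L, also called NIX, sits in the outer mitochondrial membrane and marks whole mitochondria for removal, a process called mitophagy, as in maturing red blood cells. CALCOCO2, also called NDP52, is a soluble receptor that binds ubiquitin and galectins on damaged mitochondria, damaged vesicles or invading bacteria. The mature oocyte holds a very large store of mitochondria that the embryo inherits, and it relies on stored maternal messenger RNA since it makes almost none.

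The samples held between 1636620 and 12166950 reads on genes, with VMAT replicate 1 the shallowest and VMAT replicate 2 the deepest. The normalized count is the read count divided by the size factor of the sample, and 3 reads, taken as the smallest detectable amount, were worth 0.376 in VMAT replicate 2 but 9.34 in VMAT replicate 1. Of 16 oocyte markers, 10 carried a symbol in the table, and 7 of them had at least 3 reads in every sample. Their summed normalized count ran from 6299 to 13405 in VIM, from 8130 to 16666 in VMAT and from 9667 to 14980 in FR. Of 16 markers of cumulus and granulosa cells, HAS2, the hyaluronan synthase of the expanding cumulus, was the 1 marker with a symbol. It was at 641 to 2144 in VIM, 254 to 1755 in VMAT and 462 to 1239 in FR, and the part of carried-over cumulus RNA in the values below was not tested. The 5 blood and 5 stroma markers carried no symbol. In such bulk samples, fewer cells that hold a transcript and less transcript per cell cannot be told apart.

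The BNIP3L transcript was most abundant in FR. The FR samples had normalized counts of 1523, 1498, 433, 1362 and 1998 (replicates 1 to 5), or 774 to 2791 reads. The VMAT samples were at 355, 575 and 55.4 (replicates 1 to 3), from 114, 4591 and 47 reads. The VIM samples were at 635, 86.4, 19.3 and 92.9 (replicates 1 to 4), from 1034, 53, 16 and 95 reads. Thus 4 of the 5 FR samples lay above all 7 vitrified samples, and FR replicate 3 lay between them, below VIM replicate 1 and VMAT replicate 2. BNIP3L was above the 3 reads of the detection floor in every sample.

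The mean normalized count of BNIP3L was 1363 ± 573 (SD, n = 5) in FR. The VMAT mean was 328 ± 261 (SD, n = 3) and the VIM mean 208 ± 286 (SD, n = 4). The FR mean was 6.54 times the VIM mean, between 5.02 times without VIM replicate 3 and 20.6 times without VIM replicate 1. The latter sample held most of the VIM sum. The FR mean was 4.15 times the VMAT mean, between 2.93 times without VMAT replicate 3 and 6.65 times without VMAT replicate 2. On the scale of log2(normalized count + 1), the limma difference was -3.59 (standard error, SE, 1.06) in VIM vs. FR, where the median over all 7351 genes tested was -0.12. It was -2.43 (SE 1.07) in VMAT vs. FR, where the median over 8305 genes was 0.01. Adding 1 to each value makes such differences smaller than the true ones for genes at low counts. In VIM vs. FR, 1 of the 20 possible pairs of a VIM and a FR sample had the VIM sample higher, and in VMAT vs. FR 1 of 15 pairs had the VMAT sample higher. Both comparisons used the same FR samples. Without VIM replicate 1 the difference in VIM vs. FR was -4.47, and without VMAT replicate 3, the lowest of its group, that in VMAT vs. FR was -1.43.

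Between the vitrified groups, BNIP3L differed by less than the spread between replicates. The log2 difference in VIM vs. VMAT was -1.16 (SE 1.87), against a pooled SD of 1.94 within the groups. It moved between -2.16 without VMAT replicate 3 and -0.38 without VIM replicate 3, and 5 of 12 pairs had the VIM sample above the VMAT sample. The order of levels was therefore FR first, with VMAT and VIM not separated. Within groups the highest sample had 32.9 times the lowest in VIM, 10.4 times in VMAT and 4.61 times in FR.

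**Figure D1:**
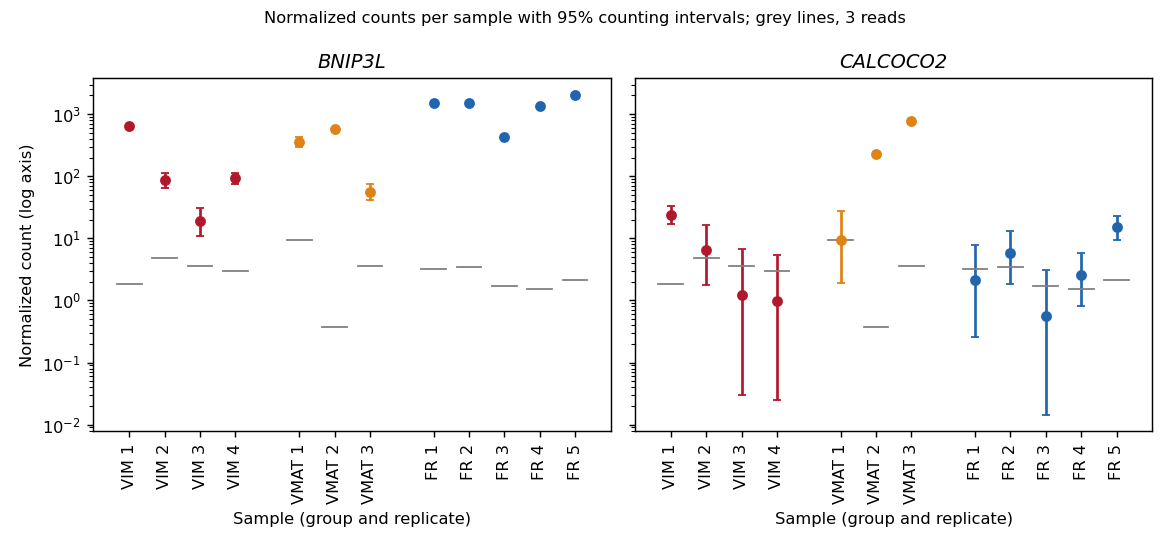
Normalized counts (log axis) of BNIP3L and CALCOCO2 in each sample (points), with exact Poisson 95% intervals for counting error (bars) and the level of 3 reads in that sample (grey lines). BNIP3L lies between 433 and 1998 in FR, and CALCOCO2 stands at 232 and 779 in VMAT replicates 2 and 3 and at 0.560 to 23.9 in all other samples.

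The CALCOCO2 transcript was abundant in a pair of libraries. VMAT replicate 2 had a normalized count of 232 from 1850 reads, and VMAT replicate 3 one of 779 from 661 reads. VMAT replicate 1 had 9.34, which was exactly 3 reads. Its 95% exact Poisson interval, which covers counting error only, ran from 1.93 to 27.3 and so held the values of several VIM and FR samples. The FR samples were at 2.16, 5.72, 0.560, 2.52 and 15.03 (replicates 1 to 5), from 2, 5, 1, 5 and 21 reads. The VIM samples were at 23.9, 6.52, 1.21 and 0.978 (replicates 1 to 4), from 39, 4, 1 and 1 reads. At least 3 reads were found in 3 of 5 FR and 2 of 4 VIM samples, so most values of these groups lay at or near the detection floor.

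The VMAT mean of CALCOCO2 was 65.4 times the FR mean, between 23.2 times without VMAT replicate 3 and 124 times without FR replicate 5. It was 41.7 times the VIM mean, between 14.8 times without VMAT replicate 3 and 117 times without VIM replicate 1. The SD over the 3 VMAT samples (396) was larger than their mean (340), whereas the VIM mean was 8.16 ± 10.8 (SD, n = 4) and the FR mean 5.20 ± 5.81 (SD, n = 5). The limma difference on the log2 scale was 4.77 (SE 2.50) when VMAT was compared with FR and -4.53 (SE 2.82) when VIM was compared with VMAT. In VMAT vs. FR, 14 of 15 pairs had the VMAT sample higher, and in VIM vs. VMAT 1 of 12 pairs had the VIM sample higher. The exceptions were FR replicate 5 and VIM replicate 1, which both exceeded VMAT replicate 1. The pairs with VMAT replicate 1 rest on its 3 reads, and their order depended on the scaling. With reads divided by the total reads of each sample, VIM replicate 2 also lay above VMAT replicate 1, and FR replicate 2 was almost level with it. These pairs are therefore not read as a separation, unlike those with VMAT replicates 2 and 3. Both comparisons used the same VMAT samples. With VMAT replicate 1 left out the differences were 6.56 and -6.32, and with VMAT replicate 3 left out they were 3.44 and -3.20.

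A difference of CALCOCO2 between VIM and FR could not be resolved with these samples, most of which lay at or near the detection floor. The log2 difference was 0.25 (SE 1.67), and 11 of 20 pairs had the VIM sample higher. It turned to -0.50 without VIM replicate 1 and to -0.14 without FR replicate 3. The order of levels was VMAT first, with 2 of its 3 samples far above the rest, and VIM and FR not separated.

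Within FR, replicate 5 held the highest value of both genes, and within VIM replicate 1 did. The lowest CALCOCO2 values of these groups were under 3 reads and were not ranked. In VMAT, replicate 3 had the most CALCOCO2 and the least BNIP3L, whereas both genes were higher in replicate 2 than in replicate 1. The SD within groups on the log2 scale, pooled over the groups, was 1.55 for BNIP3L and 2.0 for CALCOCO2. For CALCOCO2 it was 3.22 in VMAT, against 1.72 in VIM and 1.27 in FR, whose values lay mostly near the detection floor. The pooled value therefore hides the wide spread of CALCOCO2 in VMAT. Among the 790 genes whose mean log2 level was within 1 of that of BNIP3L, the median SD was 2.01, and 74.7% of them varied at least as much as BNIP3L. Among 1858 such genes for CALCOCO2, the median SD was 3.08, and 94.9% varied at least as much. Large differences between libraries of one group were thus common for genes at these levels.

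The arrangement of libraries seen for each receptor occurred in other genes as well. Of 6963 genes above 0 in at least 6 samples, 49 genes (0.704%), BNIP3L included, had at least 4 of the 5 FR samples above all vitrified samples. VMAT replicates 2 and 3 exceeded the other 10 samples in 90 genes (1.29%), CALCOCO2 included. Both arrangements were defined from the receptors' own values. The share that arbitrary orders of samples would give was not calculated, so the small percentages do not mark either arrangement as unusual.

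The genes with the pattern most like that of BNIP3L, by Pearson's r of log2 values over 12 samples, were MYLIP, ARHGEF28 and YTHDF2, followed by 2 genes without a symbol. They were picked as the highest of 6962 genes, so r is a description. MYLIP, a ubiquitin ligase for lipoprotein receptors, had r = 0.92 (Spearman's rho 0.80). It stood at 230 to 528 in FR and at 245 in VIM replicate 1, whereas the other VIM samples were at 1.96 to 3.62. ARHGEF28 had r = 0.90 (rho 0.62). YTHDF2, a reader of N6-methyladenosine that promotes decay of maternal messenger RNA, had r = 0.89 (rho 0.92), with 237 to 960 in FR. In YTHDF2 as in BNIP3L, VIM replicate 1 (255) and VMAT replicate 2 (238) were the highest vitrified samples. Without VIM replicate 3 and VMAT replicate 3, which lay farthest from the median of BNIP3L, r over 10 samples was 0.90 for MYLIP, 0.80 for ARHGEF28 and 0.92 for YTHDF2.

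For CALCOCO2, the 5 genes with the highest r, between 0.89 and 0.91, carried no symbol. In the first of them, ENSECAG00000019834, VMAT replicates 2 and 3 had normalized counts of 151 and 256, and the other samples were at 0 to 3.11. Without these libraries r over the other 10 samples was between 0.18 and 0.45 for the 5 genes, so the likeness rested on a pair of libraries. By Spearman's rho, 0 of these 5 genes stayed among the 5 most alike, against 2 of 5 for BNIP3L.

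**Figure D2:**
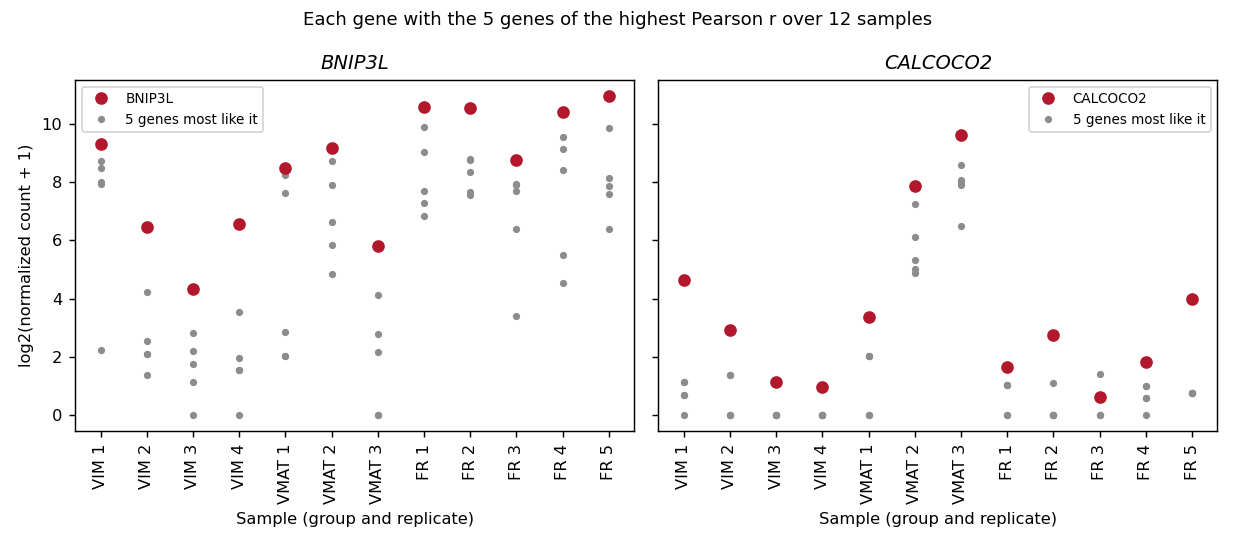
Log2 of the normalized count plus 1 in each sample for BNIP3L and CALCOCO2 (red) and for the 5 genes with the highest Pearson's r to each over 12 samples (grey). The genes most like CALCOCO2 are high in VMAT replicates 2 and 3 and lie at or near 0 elsewhere.

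Other genes of the autophagy pathway were taken from lists of receptors, their partners and the core machinery, with 114 genes in all. Of these, 28 besides the 2 receptors carried a symbol in the table and could be read, and the other genes, among them the 6 ATG8 genes and the 3 lysosomal transcription factors listed, were not analysed here. Which genes carry a symbol is not independent of the results, because the names came from shortened tables ordered by fold change in which the genes highest in vitrified samples were cut off. A gene was called differentially expressed (DE) at an adjusted p of at most 0.05 and a log2 fold change of at least 1 in either direction. With limma, 0 of 28 were called DE in each comparison, as were 0% of all genes tested. At an unadjusted p under 0.05 in limma there were 0 of 28 in VIM vs. FR (3.78% of all genes tested) and 1 of 28 in VMAT vs. FR (3.62%). Between the vitrified groups there were 0 of 28 (2.98%). With edgeR on the recovered reads, 0 of 28 were called in each comparison, with a background of 0%, 0.012% and 0.0131% of genes. With DESeq2 on the recovered reads, 2 of 28 were called in VIM vs. FR, both lower in VIM, where 6.91% of all genes were called (2.38% higher and 4.53% lower). The same tool called 0 of 28 between VMAT and FR, against 4.3% of all genes (2.18% higher and 2.12% lower). Between VIM and VMAT it called 1 of 28, lower in VIM, against 3.93% (1.69% higher and 2.24% lower).

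The signs of the 28 genes were nearly even in VIM vs. FR, with 13 higher and 15 lower (46.9% and 53.1% of all genes) and a median log2 difference of -0.02. In VMAT vs. FR, 7 were higher and 21 lower (50.3% and 49.7% of all genes), with a median of -0.51. The median over the 2623 tested genes with a symbol was -0.24 and -0.28 in these comparisons, below the medians over all genes (-0.12 and 0.01). In VIM vs. VMAT, 18 were higher and 10 lower (47.8% and 52.2% of all genes) with a median of 0.59, against 0.04 over the genes with a symbol. Nothing particular to the list is read from these medians.

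Among the mitophagy receptors, BNIP3, the close relative of BNIP3L, was present in some libraries of each group and nearly absent from others. Its FR samples were at 1087, 1087, 16.2, 3.53 and 135 and its VIM samples at 128, 536, 2.41 and 321. The VMAT samples were at 3.11, 108 and 4.72, of which the first was a single read. The groups overlapped throughout. The log2 difference of BNIP3 was -0.16 (SE 1.90, limma adjusted p = 0.997) for VIM vs. FR, and -2.93 (SE 2.21, limma adjusted p = 0.95) for VMAT vs. FR. FR replicate 4, at 3.53 for BNIP3, had 1362 for BNIP3L.

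Among the ubiquitin-dependent and other cargo receptors, TAX1BP1, a relative of CALCOCO2 with a similar domain plan, was read deeply in every sample. It had 551 to 9550 reads, and its mean was 3702 ± 1679 (SD, n = 5) in FR. The VMAT mean was 2894 ± 3425 (SD, n = 3) and the VIM mean 3037 ± 1233 (SD, n = 4). In VMAT replicate 3, where CALCOCO2 was highest, TAX1BP1 was at 650, its lowest value. Its log2 difference was -0.25 (SE 0.46) for VIM vs. FR, -0.97 (SE 0.73) for VMAT vs. FR and 0.72 (SE 0.84) between the vitrified groups. The limma adjusted p was 0.953, 0.95 and 0.988 in that order. NUFIP1, a receptor for ribosomes, was also found in every sample at 564 to 2880, and its log2 differences were between -0.23 and 0.20.

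MYO6, a myosin motor that binds CALCOCO2 and TAX1BP1 and helps autophagosomes to mature, was the 1 list gene with an unadjusted p under 0.05, in VMAT vs. FR. The FR samples were at 849, 192, 475, 348 and 601. The VMAT samples were at 293, 90.4 and 0, and the VIM samples at 494, 3.26, 116 and 66.5. VMAT replicate 1 and VIM replicate 1 each lay above the lowest FR sample, so the groups overlapped. The log2 difference was -3.88 (SE 1.68, limma unadjusted p = 0.0267, adjusted p = 0.95) for VMAT vs. FR, and for VIM vs. FR it was -2.78 (SE 1.38, limma adjusted p = 0.902). VMAT replicate 3, with 0 reads of MYO6, allows a normalized count of up to 3.54.

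FOXO3, a transcription factor that drives autophagy genes, was nearly absent from VIM. The VIM samples were at 2.46, 9.78, 1.21 and 2.93, or 1 to 6 reads. The FR samples were at 147, 89.2, 426, 344 and 2.15, and the VMAT samples at 12.4, 117 and 575. FR replicate 5, with 3 reads of FOXO3, lay among the VIM samples, although it had the highest level of BNIP3L. In VMAT, FOXO3 and CALCOCO2 had the same order of libraries, with replicate 3 highest and replicate 1 at 3 or 4 reads. Other list genes, among them PGAM5, RAB7A and ATG5, shared this order, so it was not particular to FOXO3 and CALCOCO2. The log2 difference of FOXO3 in VIM was -4.42 (SE 2.16, limma adjusted p = 0.902) against FR, and -4.52 (SE 2.87, limma adjusted p = 0.967) against VMAT. DESeq2 on the recovered reads gave adjusted p = 0.00397 and 0.0194. In VMAT vs. FR the log2 difference was 0.10 (SE 1.90).

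FBXW7, a ubiquitin ligase adaptor in the list of partners and regulators of BNIP3L, was high in every sample, at 785 to 13732. Its log2 differences lay between -0.15 and 0.19, and VMAT replicate 1 held the highest value. Unlike FOXO3, FBXW7 had at least 1589 reads in each library.

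In the core machinery, the gene called by DESeq2 was WIPI1, a phosphoinositide-binding protein of the early autophagosome. It stood at 510 and 290 in FR replicates 2 and 5 and at 1.01 to 2.80 in the other FR samples, whereas the VIM samples were at 0 to 1.96. The log2 difference in VIM vs. FR was -3.12 (SE 2.19, limma adjusted p = 0.902, DESeq2 adjusted p = 0.00753). It therefore rested on 2 of 5 FR samples. NRBF2, a subunit of the phosphoinositide 3-kinase complex that starts the membrane, was at 352 to 1376 in FR replicates 1 to 4 and at 2.15 in FR replicate 5. VIM replicate 1 was at 767, and the other vitrified samples were at 1.18 to 106. Its log2 difference was -3.71 (SE 2.06, limma adjusted p = 0.902) for VIM vs. FR, and -4.18 (SE 2.06, limma adjusted p = 0.95) for VMAT vs. FR.

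ATG3 and ATG5, which attach ATG8 proteins to the membrane, showed the same switching between libraries. ATG3 was at 559 to 695 in VIM replicates 2 to 4 and at 0.614 in replicate 1, and its log2 difference in VIM vs. VMAT was 3.98 (SE 2.49, limma adjusted p = 0.967). ATG5 was at 3.26 in VIM replicate 2 and at 2550 in VIM replicate 3, and its log2 difference in VIM vs. FR was 3.30 (SE 2.07, limma adjusted p = 0.902). ATG14, a subunit of the initiating kinase complex, was by contrast at 810 to 2503 in all samples. SEC62, a receptor for the endoplasmic reticulum, was at 349 to 1743, and CCPG1, another such receptor, was at 2.36 to 635.

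Later steps and the PINK1 and Parkin branch of mitophagy were read as well. RAB7A, the small GTPase of late endosomes, was at 434 to 1740 in FR, 28.0 to 1955 in VMAT and 18.1 to 1389 in VIM, with a log2 difference of -2.12 (SE 1.17, limma adjusted p = 0.902) for VIM vs. FR. SNAP29, a SNARE that joins autophagosome and lysosome, was at 43.0 to 822 in FR and at 3.54 to 300 in VMAT, with a log2 difference of -3.15 (SE 1.79, limma adjusted p = 0.95). USP8, a deubiquitinase that acts on Parkin, was at 1434 to 4641 in VIM, 156 to 3012 in VMAT and 447 to 2059 in FR. The log2 difference of USP8 was 1.69 (SE 1.01, limma adjusted p = 0.967) in VIM vs. VMAT. PGAM5, a mitochondrial phosphatase, was at 28.6 to 1183 in FR and 93.4 to 1882 in VMAT, with a log2 difference of 1.56 (SE 1.48, limma adjusted p = 0.952). Groups overlapped for each of these genes.

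**Figure D3:**
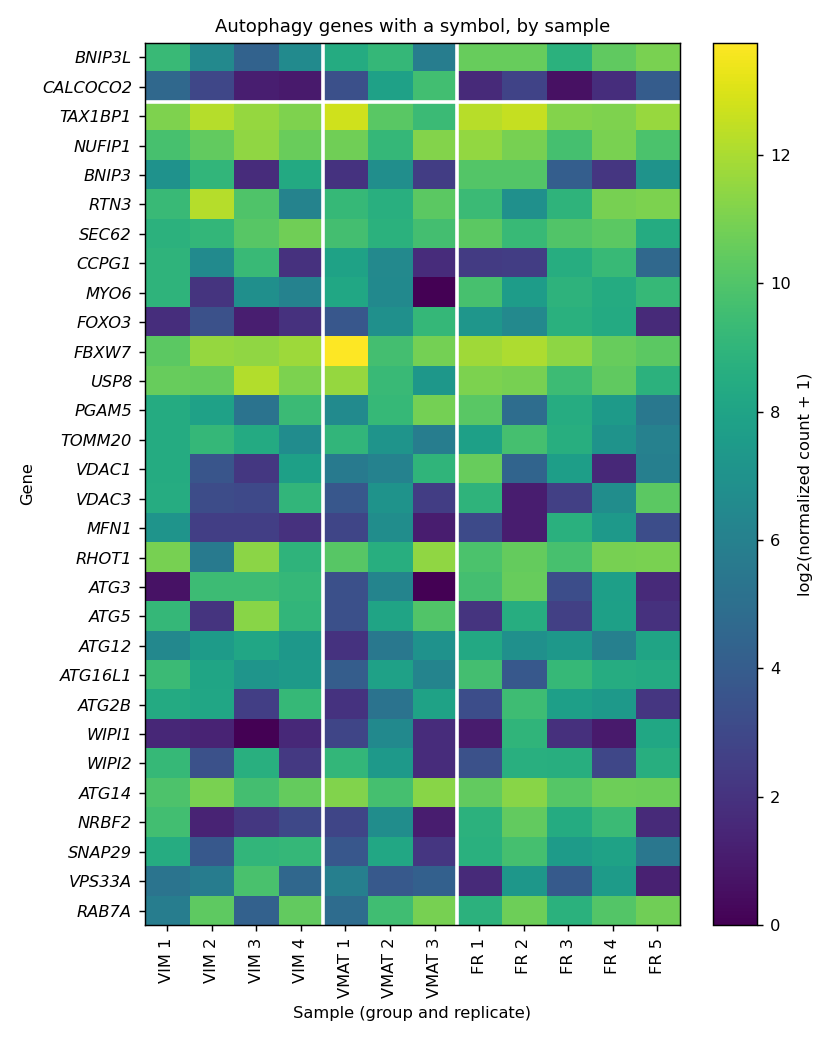
Heat map of log2 of the normalized count plus 1 for BNIP3L, CALCOCO2 (above the white line) and the 28 other autophagy genes with a symbol, by sample and with the groups divided by white lines. TAX1BP1, NUFIP1, FBXW7 and ATG14 are high in every sample, whereas genes such as BNIP3, FOXO3, WIPI1 and ATG3 are high in some libraries of a group and near 0 in others.

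**Figure D4:**
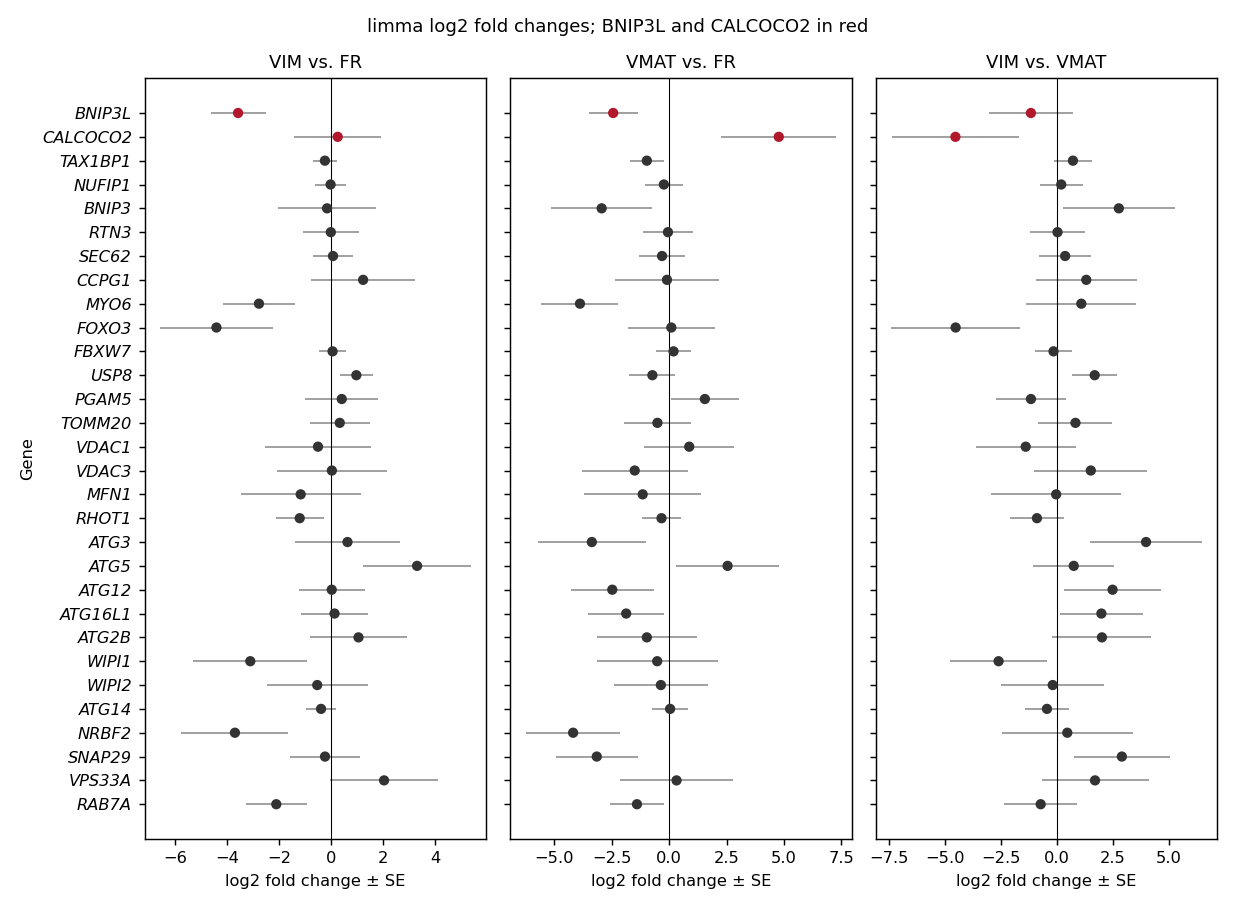
The limma log2 fold change (points, with bars of 1 standard error) of BNIP3L and CALCOCO2 (red) and of 28 other autophagy genes in each comparison. BNIP3L lies at -3.59 and -2.43 against FR, and CALCOCO2 at 4.77 for VMAT vs. FR and -4.53 for VIM vs. VMAT, with standard errors of 2.50 and 2.82.

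Scaling did not turn the directions of the receptors. With equal column totals the log2 difference of BNIP3L was -3.71 for VIM vs. FR and -2.50 for VMAT vs. FR, and with quantile normalization it was -3.25 and -2.11. For CALCOCO2 in VMAT vs. FR the corresponding values were 4.78 and 5.24.

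**Figure D5:**
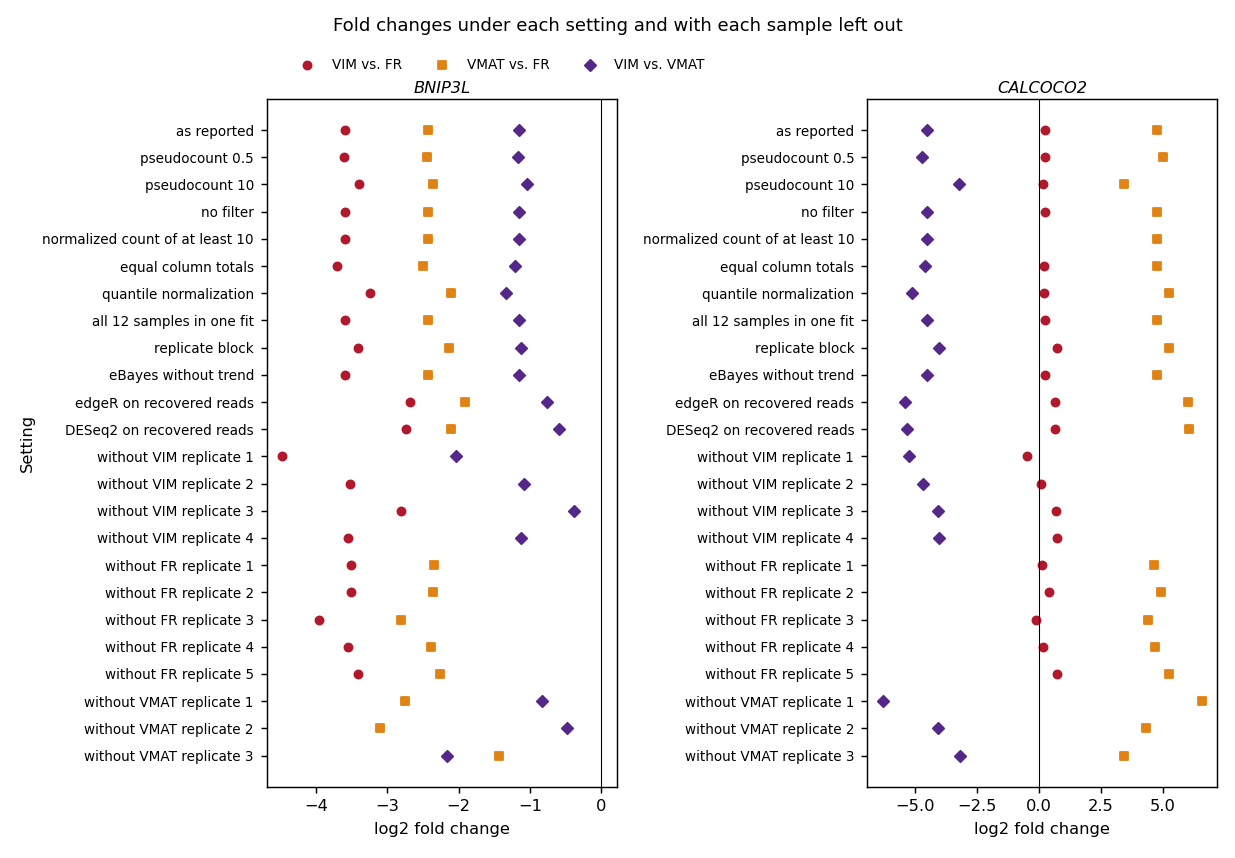
The log2 fold change of BNIP3L and CALCOCO2 in each comparison (symbols) as reported, under each alternative setting and with each sample left out. BNIP3L stays below 0 throughout, and CALCOCO2 crosses 0 in VIM vs. FR without VIM replicate 1 (-0.50) or FR replicate 3 (-0.14).

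In the RefSeq annotation of another horse assembly, TB-T2T, 0 other genes overlapped BNIP3L or CALCOCO2. The coding neighbours were PPP2R2A and PNMA2 for BNIP3L and TTLL6 and ATP5MC1 for CALCOCO2. Since that assembly is not the one used for mapping, positions were not analysed here.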

How the data were processed

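RNA sequencing libraries of pooled horse oocytes (4 VIM, 3 VMAT and 5 FR samples) were made with a three-prime kit that carries unique molecular identifiers. According to the methods and the submitters' processing notes, the authors trimmed reads with Trim Galore and mapped them to EquCab3.0 with STAR. Identifiers were processed with UMI-tools, and counts were made with RSEM. RNA was isolated from 5 pools per group, and control of RNA amount and integrity left 4 VIM, 4 VMAT and 5 FR. The authors then left out 1 VMAT sample with low RNA integrity, the lowest concentration and few reads. Pools were thus lost from the vitrified groups only, and whether RNA quality differed between the groups kept was not tested. The deposited table gives each gene a signal in every sample, namely its counts over a DESeq2 size factor. Every value was a whole multiple of the smallest one in its sample (100.0% within 0.001), so whole reads were recovered. These served edgeR, DESeq2, counting intervals and floors, which cover counting error only.

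The main fit was limma 3.58.1 under R 4.3.3, using lmFit and a trended eBayes, on log2(normalized count + 1), with the samples of both groups and genes above 0 in at least 4 (VIM vs. FR) or 3 samples, and Benjamini-Hochberg adjustment over all genes tested. The labels do not say whether samples came from separate animals, so p-values measure the spread between these samples. Alternatives were pseudocounts of 0.5 and 10, no filter, a minimum of 10, 2 other scalings, 1 fit of all 12 samples, eBayes without trend, a replicate block, edgeR 4.0.16, DESeq2 1.42.0 and leaving out each sample. Within groups, chi-square per degree of freedom between libraries was at least 166, so no library was counted again.

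Symbols for 2623 genes of the table came from the study's supplementary tables. The genes and lists were chosen with earlier results of these data known. Named genes were BNIP3L and CALCOCO2, the cargo and mitophagy receptors and the partners of both genes in the lists, of each other list the gene with the smallest p and those called, and the 5 genes with the highest r to each receptor among genes above 0 in at least 6 samples. Sequences were not analysed here.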

Additional observations from a re-analysis of the deposited data

Results flagged for a closer look

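For BNIP3L, CALCOCO2 and the 28 other autophagy genes with a symbol, the VIM and FR groups were searched for a sample whose gap to the nearest other sample took up most of the range of its group (Dixon's criterion at 95%). Among the 60 groups examined there were 6 such samples. For normally distributed values the criterion marks about 1 in 20 groups, or 3 here. It was applied to normalized counts and not to log values, so 6 against 3 is not read as an excess. BNIP3L in VIM replicate 1 had a normalized count of 635, whereas the other VIM samples were at 19.3 to 92.9. The gap was 0.880 of the range of the group. On the scale of log2(normalized count + 1), the sample was at 9.31, against 4.34 to 6.55 in the other VIM samples. Without this sample the log2 difference of BNIP3L was -4.47 in VIM vs. FR and -2.04 in VIM vs. VMAT, and that of CALCOCO2 was -0.50 in VIM vs. FR. NRBF2 in the same library was at 767, against 1.63 to 6.84 in the other VIM samples. WIPI1 was at 0 in VIM replicate 3, against 1.63 to 1.96, all at 3 reads or fewer. VDAC1, MFN1 and VPS33A are named here after their values were seen. VDAC1, a channel of the outer mitochondrial membrane, was at 1479 in FR replicate 1, against 2.02 to 209.9 in the other FR samples. MFN1, a mitochondrial fusion protein, was at 136 in VIM replicate 1, against 2.93 to 4.89. VPS33A, a subunit of the tethering complex of late endosomes, was at 875 in VIM replicate 3, against 23.5 to 53.8.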

How the results depend on the processing

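Of 170 alternative values for the receptors' fold changes and the counts of list genes called, 168 stayed within the SD between replicates or at the same count. This rule is lenient, since the pooled SD was 1.24 to 2.43 log2 units. The changes of sign of CALCOCO2 in VIM vs. FR fell within it. Nearly all limma fits also called 0 of all genes. The values outside the rule were counts of autophagy list genes called with DESeq2 on the recovered reads. These were 2 in VIM vs. FR (FOXO3 and WIPI1) and 1 in VIM vs. VMAT (FOXO3), against 0 with limma. The cause was not tested. Over all genes tested, DESeq2 called 508 (VIM against FR), 357 (VMAT against FR) and 300 (VIM against VMAT), where limma called 0 and, at an unadjusted p under 0.05, 278, 301 and 227. edgeR called 0, 1 and 1. When samples were left out 1 at a time, limma called 0 list genes and also 0 of all genes tested. The steady count therefore says nothing particular about the list. The log2 difference of BNIP3L then ran from -4.47 to -2.81 in VIM vs. FR, from -3.11 to -1.43 in VMAT vs. FR and from -2.16 to -0.38 in VIM vs. VMAT. That of CALCOCO2 ran from -0.50 to 0.72, from 3.44 to 6.56 and from -6.32 to -3.20 in the same order. Over the other alternatives, BNIP3L ran from -3.71 to -2.68, from -2.50 to -1.91 and from -1.34 to -0.59, and CALCOCO2 from 0.16 to 0.70, from 3.42 to 6.06 and from -5.42 to -3.25. With a normalized count of at least 10, CALCOCO2 could not be fitted in VIM vs. FR, since too few samples reached that value.

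The correlation of the deviations of same-numbered samples lay between -0.03 and 0.02 over 10 pairs. The labels do not say whether samples shared a collection or culture batch. According to the paper, FR and VMAT oocytes were matured together and assigned to a group afterwards, whereas VIM oocytes were matured after warming. In comparisons with VIM, a difference of the maturation culture therefore cannot be told apart from vitrification before maturation. Effects of batch were not tested. With the replicate block, the log2 differences of BNIP3L were -3.41, -2.14 and -1.12 and those of CALCOCO2 were 0.70, 5.26 and -4.05. These fits called 0 list genes and 0 of all genes tested. Of the 5 genes most like BNIP3L, 3 were kept with a pseudocount of 10 and 2 with Spearman's rho, and of those most like CALCOCO2 3 and 0. Low read counts limit what can be said of CALCOCO2, with 1 to 5 reads in 7 of the 9 VIM and FR samples.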
